A study of Arabidopsis thaliana with 30 samples.

Results

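The position of BRM, the ATPase of an Arabidopsis SWI/SNF complex, was set beside the positions of acetylated lysine 5 and lysine 8 of histone H4 (H4K5ac and H4K8ac). The data were 6 ChIP-seq peak lists of the 30 samples of the series, namely 2 lists of BRM-GFP, 2 of H4K5ac in WT and 2 of H4K8ac in WT. All came from 14-day-old seedlings grown at 22 °C under 16 h of light and 8 h of dark. BRM was pulled down through its GFP tag. No genotype is labelled for BRM-GFP, and the design text names brm-1 seedlings for BRM occupancy, so the background is not settled here. The promoter of the transgene is not given in the sources used here. The WT samples carry no further label of strain. Their antibody fields name GFP, whereas their titles name the histone marks, and the titles were followed. BRD1-GFP, BRD2-GFP and BRD13-GFP, each with 2 lists from 14-day-old seedlings under the same growth conditions, served as the most similar proteins for comparison. The design text gives brd1 for BRD1 occupancy and brd2 for BRD2 occupancy, and names no background for BRD13.

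SWI/SNF complexes use ATP to slide, evict or restructure nucleosomes, and in plants they act at many genes of development and of hormone and light responses. Acetylation of the H4 tail neutralises the charge of its lysines and can be read by bromodomains, protein modules that bind acetylated lysine. Acetylated H4 is a mark of transcribed genes and is found near their 5′ ends. How BRM lies against it, along the direction of transcription, is a matter of the order of summits within a gene.

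A region was a stretch of merged peaks that held a peak of each replicate, and its summit was the midpoint between the summits of the best peak of each replicate. BRM-GFP had 13638 regions, H4K5ac 18558 and H4K8ac 17582. The summits of the 2 replicates lay a median of 61 bp apart in BRM-GFP, 39 bp in H4K5ac and 53 bp in H4K8ac, and these values limit how finely an order can be read at a single gene. A region was placed at a gene start when its summit lay within 1 kb of the nearest start of a protein-coding or miRNA gene. Of the BRM-GFP regions, 10776 (79.0%) were at a gene start, compared with 88.5% for H4K5ac and 87.5% for H4K8ac. Background coverage, the depth that can be solved from the lists, was 10.01 and 18.6 reads in BRM-GFP and 24.2 to 29.4 reads in the acetylation lists, so the BRM-GFP lists were the shallower. As a check of the seedling label, an H4K5ac region stood at the start of 0 of 11 seed maturation and 1 of 6 pollen genes, against 9 of 11 housekeeping and 7 of 14 photosynthesis genes. Of all genes, 57.4% had H4K5ac and 53.5% had H4K8ac at the start. The photosynthesis genes were not above the H4K5ac share over all genes, so they add nothing to this check.

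Stretches of sequence that hold the summits are shown for 3 single genes, which are extremes and not typical cases. XCT and KNAT4 were among the 5 genes with the longest distance downstream, near the limit of 1 kb. AT3G03280 was among the 5 with the closest summits. The median distance to H4K5ac over all gene-start regions that had it was 132 bp. Bases are TAIR10.1 reference sequence, 5′ to 3′ along the gene, and capitals mark the bases at which single lists placed a summit. In XCT, the XAP5 circadian timekeeper, the BRM-GFP summits lay upstream of the gene (chr2:9064473-9064515, plus strand) and the H4K5ac summits in the first exon, within the coding sequence (chr2:9065445-9065499). In KNAT4, a KNOTTED1-like homeobox gene, the same order was found, with BRM-GFP upstream of the gene (chr5:3509661-3509703, plus strand) and H4K5ac in the coding part of the first exon (chr5:3510627-3510722). In AT3G03280, which encodes an uncharacterized protein, 1 stretch of the coding sequence (chr3:765716-765762, plus strand) held the summits of all 6 lists.
XCT BRM-GFP: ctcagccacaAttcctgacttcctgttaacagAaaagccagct
XCT H4K5ac: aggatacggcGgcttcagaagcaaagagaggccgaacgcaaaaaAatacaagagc
KNAT4 BRM-GFP: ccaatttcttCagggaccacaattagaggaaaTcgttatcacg
KNAT4 H4K5ac: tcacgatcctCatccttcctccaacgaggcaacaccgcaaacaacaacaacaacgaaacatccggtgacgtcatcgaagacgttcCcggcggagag
AT3G03280 all lists: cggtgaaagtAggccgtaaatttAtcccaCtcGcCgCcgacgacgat

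Across gene starts, BRM-GFP lay first and the acetylation followed it into the gene. The median summit position was 171 bp downstream of the gene start for BRM-GFP, 294 bp for H4K5ac and 341 bp for H4K8ac. List by list, the medians were 171 and 163 bp in BRM-GFP, 294 and 291 bp in H4K5ac, and 337 and 336 bp in H4K8ac. The lists of the 3 kinds did not overlap in these medians. The means were 167 ± 5.66 bp for BRM-GFP, 292.5 ± 2.121 bp for H4K5ac and 336.5 ± 0.707 bp for H4K8ac (SD, n = 2). The difference between BRM-GFP and the 4 acetylation lists was 147.5 bp, with a two-sided exact permutation p of 0.0667 over lists, which is the smallest that 2 against 4 lists can give. With 2 lists against 2, as for BRM-GFP against either mark or H4K8ac against H4K5ac, the exact permutation p was 0.333, again the smallest possible. None of these designs can reach 0.05. The labels number the replicates but do not state whether they came from separate plants, so these p-values measure only the spread between lists, which may be technical.

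**Figure D1:**
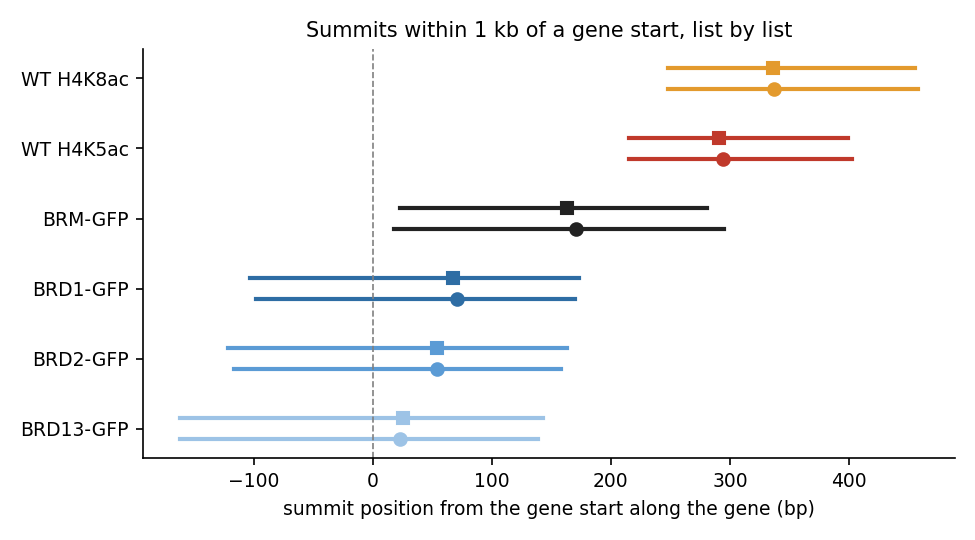
Summit position from the gene start (x axis, bp along the gene) for each list (y axis). Circles are replicate 1, squares are replicate 2, lines span the middle 50% of summits, and the list medians run from 23 bp in BRD13-GFP through 163 and 171 bp in BRM-GFP to 337 bp in H4K8ac.

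The spread within a kind was wider for BRM-GFP than for either mark. The middle 50% of BRM-GFP regions lay between 32.5 and 290 bp downstream of the start, and 22.3% lay upstream of it. For H4K5ac the middle 50% lay between 222 and 399.5 bp and 7.41% lay upstream, and for H4K8ac between 260.0 and 459.5 bp with 7.59% upstream.

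The signed distance was then taken from each gene-start BRM-GFP summit to the nearest acetylation summit within 1 kb, positive when the acetylation lay further downstream along the gene. An H4K5ac summit was found for 9165 of the 10776 regions (85.1%), at a median distance of 132 bp, with the middle 50% between 48.5 and 257.5 bp. An H4K8ac summit was found for 8778 (81.5%), at a median of 185 bp, with the middle 50% between 87.0 and 320.5 bp. H4K5ac was downstream of BRM-GFP at 7731 of these regions (84.4%) and H4K8ac at 7674 (87.4%), and they were upstream at 15.5% and 12.6%. Between the 4 pairs of single lists the median was 129 ± 1.50 bp for H4K5ac and 177 ± 2.50 bp for H4K8ac, and the share downstream was 82.1% ± 0.848 and 85.4% ± 0.667 (SD, n = 4 pairs, which share lists). The distance was much the same on both strands, with medians of 131.5 bp (plus) and 134 bp (minus) for H4K5ac, and 185 and 185.5 bp for H4K8ac, so it followed the gene and not the chromosome.

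At a single region the order was less certain than over all of them. H4K5ac was downstream in all 4 pairs of lists at 70.7% of the regions, upstream in all 4 at 9.20%, and the pairs disagreed at 20.1%. For H4K8ac these shares were 77.3%, 8.35% and 14.3%. The SD over the 4 pairs of lists was a median of 53.2 bp per region for H4K5ac and 60.8 bp for H4K8ac. At 14.0% of the regions the H4K5ac summit lay within 50 bp of the BRM-GFP summit, less than the typical difference between BRM-GFP replicates, and H4K8ac did so at 7.76%. At 20.2% of the regions H4K5ac lay more than 300 bp downstream, and at 27.5% H4K8ac did. Where the midpoints of regions replaced the summits, the medians rose to 226 bp for H4K5ac and 357 bp for H4K8ac.

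**Figure D2:**
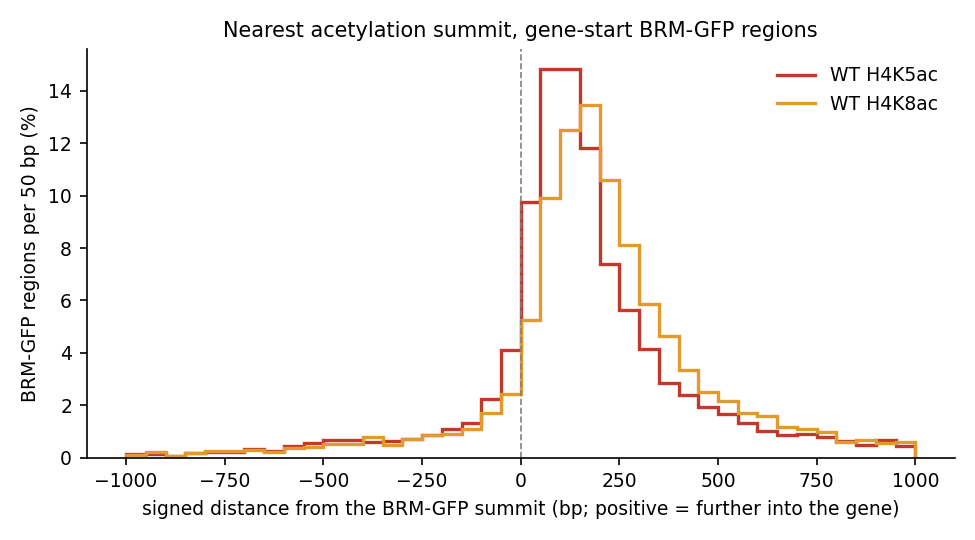
Distribution of the signed distance from the BRM-GFP summit to the nearest acetylation summit (x axis, bp, positive into the gene) as the percentage of gene-start BRM-GFP regions per 50 bp (y axis). The fullest bin was 100 to 150 bp for H4K5ac (1360 regions) and 150 to 200 bp for H4K8ac (1180 regions).

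The 2 marks were themselves offset. Among 8543 regions with both marks, the order BRM-GFP, H4K5ac, H4K8ac was found in 5583 (65.4%), and BRM-GFP, H4K8ac, H4K5ac in 1452 (17.0%). BRM-GFP lay between the marks in 456 regions (5.34%) with H4K5ac upstream and in 224 (2.62%) with H4K8ac upstream. It lay downstream of both in 828 regions, 460 of them (5.38%) with H4K8ac the further upstream and 368 (4.31%) with H4K5ac. H4K8ac was further downstream than H4K5ac in 6387 regions (74.8%), by a median of 37.5 bp over all of them. Valued by list, the distance from BRM-GFP regions was 49.25 bp longer for H4K8ac than for H4K5ac (two-sided exact permutation p = 0.333, the smallest possible). With region midpoints in place of summits this difference was 108 bp.

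Set against the gene start, the most frequent order was start, BRM-GFP, acetylation, at 71.3% of the regions with H4K5ac and 75.5% of those with H4K8ac. The median positions in that class were 202.5 and 349 bp for BRM-GFP and H4K5ac, and 206.5 and 405.5 bp for BRM-GFP and H4K8ac. BRM-GFP upstream of the start with the mark downstream of it came next (12.3% and 11.3%), and there the marks lay a median of 487.5 and 521.5 bp from BRM-GFP. Both downstream of the start with the mark first, or at the same base, made up 8.77% and 6.08%. In the remaining classes the mark lay upstream of the start, and BRM-GFP was downstream of the start in 2.89% and 2.23%.

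The acetylation summit stayed at a similar place for BRM-GFP positions from 500 bp upstream to 200 bp downstream of the start, but not for those further upstream. With BRM-GFP 250 to 500 bp upstream of the start, the median H4K5ac summit was 250 bp downstream of the start. With BRM-GFP 0 to 100 bp downstream it was 263 bp, and with BRM-GFP 100 to 200 bp downstream it was 283.75 bp. The distance is the difference of these positions and fell accordingly, from 591 to 204.5 and 132 bp. Further into the gene the mark moved along with BRM-GFP, to 340.5, 428.75 and 513 bp for BRM-GFP at 200 to 300, 300 to 400 and 400 to 500 bp, and the distance shrank to 95.5, 83.5 and 66.0 bp. H4K8ac showed the same pattern at larger distances, from 627.25 bp for BRM-GFP 250 to 500 bp upstream to 121.25 bp for BRM-GFP 400 to 500 bp downstream. With BRM-GFP 500 to 1000 bp downstream of the start the order was weak for both marks. H4K5ac was downstream in 54.7% of those regions (median distance 18.75 bp) and H4K8ac in 59.1% (median distance 47.0 bp). The share of regions with H4K5ac within 1 kb was 93.8% for BRM-GFP at 100 to 200 bp and 34.5% for BRM-GFP at 500 to 1000 bp upstream of the start. In that most upstream class the median mark position was itself upstream, at -475 bp for H4K5ac and -685.5 bp for H4K8ac. The order was weak or lost there, with H4K5ac downstream in 59.4% (median distance 195.5 bp) and H4K8ac in 49.8% (median distance -1.0 bp). The limit of 1 kb itself leaves out marks inside the gene for the most upstream regions.

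**Figure D3:**
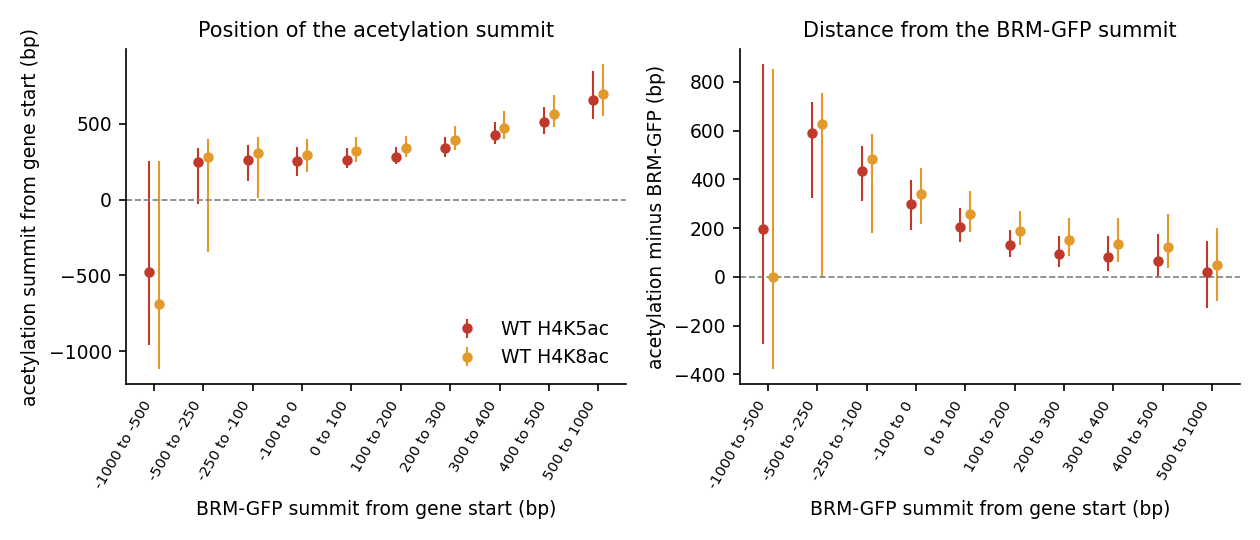
Median position of the acetylation summit from the gene start (left, y axis in bp) and median distance from the BRM-GFP summit (right, y axis in bp) for classes of BRM-GFP position (x axis, bp). Points are medians over regions and bars the middle 50%, and H4K5ac stays between 250 and 283.75 bp for BRM-GFP from 500 bp upstream to 200 bp downstream of the start, while the distance falls from 591 to 132 bp.

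In terms of gene parts, the median BRM-GFP summit and the median acetylation summits fell on different sides of the start codon. Among 8510 protein-coding regions with both marks, the BRM-GFP summit lay in the 5′ UTR in 40.6%, in coding sequence of the first exon in 32.0% and upstream of the transcript in 15.7%. The H4K5ac summit lay in the 5′ UTR in 14.6%, in first-exon coding sequence in 52.9% and in the first intron in 15.6%. The H4K8ac summit lay in the 5′ UTR in 10.2%, in first-exon coding sequence in 51.8% and in the first intron in 18.1%. Measured from the start codon, the medians were -73.5 bp for BRM-GFP, upstream of it, and 96.0 and 142 bp for H4K5ac and H4K8ac, downstream of it. Of the summits, 36.8% of BRM-GFP, 67.9% of H4K5ac and 73.7% of H4K8ac were downstream of the start codon. Parts were read from 1 transcript per gene, the one with the longest coding sequence.

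The distance changed little with the strength of BRM-GFP. With regions split into 4 classes of about equal size by fold enrichment (the peak caller's ratio over background), from the weakest to the strongest, the median distance to H4K5ac was 125, 128, 132 and 144.5 bp, and the share with H4K5ac within 1 kb was 80.4%, 84.6%, 86.2% and 89.0%. The BRM-GFP summits of these classes lay at 127.5, 147.5, 177.25 and 247 bp from the start. Gene length made more difference to the order, since with 4 classes of gene length H4K5ac was downstream in 74.6% of the regions in the class of shortest genes and in 86.6% to 87.9% in the others. The median distance was 103 bp in that class and 134 to 145 bp in the others.

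Acetylation summits on both sides of the BRM-GFP summit were uncommon and were more frequent at divergent starts. A region has a single summit, so a region that spans BRM-GFP counts on a single side. At gene starts the BRM-GFP summit lay inside the H4K5ac region in 77.6% of overlaps and inside the H4K8ac region in 68.2%. H4K5ac summits lay within 1 kb on both sides at 6.52% of gene-start regions, downstream only at 66.6%, upstream only at 11.8% and on neither side at 15.04%. Where a gene on the other strand started within 1 kb upstream (1674 regions), both sides held a summit of H4K5ac at 17.98% and of H4K8ac at 22.6%. Where no other gene started within 1 kb (8679 regions), these shares were 4.18% and 4.38%, and the median distance to H4K5ac was 137 bp.

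The regions themselves were staggered more often than nested. Of all BRM-GFP regions, 10190 (74.7%) overlapped an H4K5ac region and 9890 (72.5%) an H4K8ac region. Among those overlapping H4K5ac, BRM-GFP reached further upstream and ended first in 52.8%, and held the whole H4K5ac region in 27.1%. It lay inside the H4K5ac region in 13.9% and reached further downstream in 6.19%. For H4K8ac these shares were 62.8%, 23.9%, 6.07% and 7.28%. The upstream edge of BRM-GFP lay a median of 269 bp upstream of the edge of H4K5ac and 358 bp upstream of that of H4K8ac, and the downstream edge of the mark lay a median of 196 and 357 bp beyond that of BRM-GFP.

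**Figure D4:**
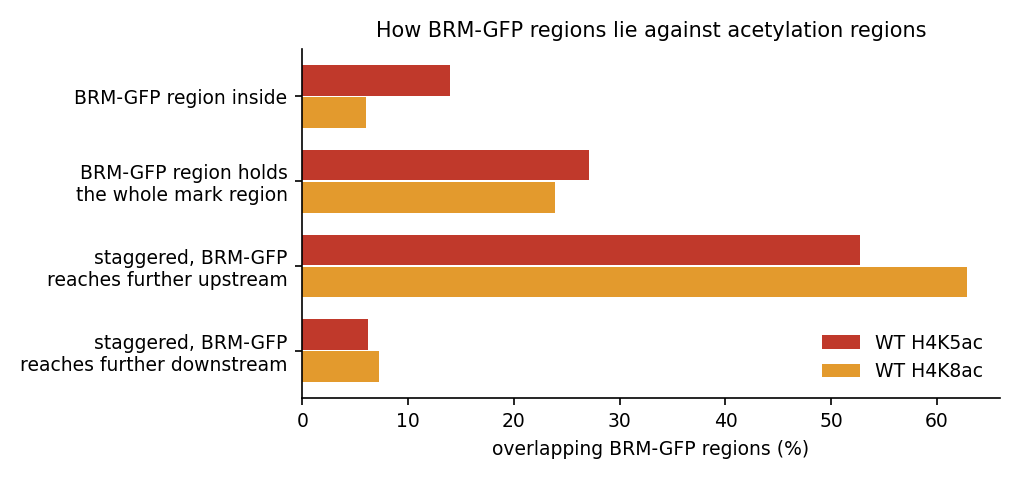
Share of overlapping BRM-GFP regions (x axis, percent) in each class of position against the acetylation region (y axis), for H4K5ac (red) and H4K8ac (orange). Staggered regions with BRM-GFP further upstream are the fullest class for both marks, at 52.8% and 62.8%.

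The nesting classes differed in width, which sets which region can hold which. BRM-GFP regions that held an H4K5ac region had a median width of 2200.5 bp against 734.5 bp for the mark, and those inside one were 658 bp wide against 1461 bp. The median BRM-GFP fold enrichment was 5.91 in the first class, 2.92 in the second and 3.56 in the staggered class with BRM-GFP further upstream. The summit tells the same order without the edges, since the BRM-GFP summit lay inside the H4K5ac region in 75.8% of the overlaps, upstream of it in 1834 of 10190 overlaps and downstream of it in 6.16%. For H4K8ac these shares were 66.2%, 25.8% and 7.95%. The typical BRM-GFP summit stood 20.7% of the way along the H4K5ac region and 10.2% of the way along the H4K8ac region, counted from the upstream edge. Shares of nested regions depended on the number of lists merged. With a single BRM-GFP list, 20.5% to 21.9% of the regions were inside an H4K5ac region and 9.39% to 10.0999% inside an H4K8ac region.

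Away from gene starts the order depended on the place in the gene. Of 2862 such BRM-GFP regions (21.0%), 2137 lay between genes, and 13.0% of these had an H4K5ac summit within 1 kb. At 461 regions in the last 1 kb of a gene, H4K5ac was within 1 kb at 56.0%, and among these it lay upstream of BRM-GFP at 74.4%, with a median distance of -164.5 bp. H4K8ac lay upstream at 79.1% of its 254 regions there, with a median of -226.5 bp. At 264 regions further inside a gene, H4K5ac was downstream at 63.2%, with a median of 116 bp. Seen from the marks, 63.4% of H4K5ac and 66.6% of H4K8ac regions overlapped BRM-GFP, and at gene starts the summit of H4K5ac regions with BRM-GFP lay at 325 bp and that of regions without it at 252 bp.

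BRM-GFP stood between the BRD proteins and the acetylation. BRD1, BRD2 and BRD13 are bromodomain subunits of SWI/SNF complexes. From the gene start, the list medians averaged 167 bp in BRM-GFP and 49 bp in the BRD-GFP lists, which lay between 23 and 71 bp (two-sided exact permutation p = 0.0357, the smallest possible). The median distance to the H4K5ac summit was 131 and 127.5 bp in the BRM-GFP lists, 198 and 206.5 bp in BRD1-GFP, 220.0 and 220.0 bp in BRD2-GFP, and 261 and 259 bp in BRD13-GFP. The BRM-GFP values lay below those of all 6 BRD-GFP lists. The mean was 129 bp in BRM-GFP and 227 bp in the BRD-GFP lists, a difference of -98.2 bp (two-sided exact permutation test over 28 splits, p = 0.0357, adjusted p = 0.0357 over both marks). For H4K8ac the means were 180.25 and 278 bp, a difference of -97.75 bp (exact permutation p = 0.0357, adjusted p = 0.0357). These p-values are the smallest that 2 against 6 lists can give, and the 6 lists come from 3 proteins. Without either BRM-GFP list the exact permutation p for H4K5ac was 0.143, the smallest that 1 against 6 lists allows, with differences of -96.4 and -99.9 bp. The BRM-GFP lists had the lowest background coverage and name their chromosomes differently from the lists they are compared with, and the part of either in the difference was not tested. At 5769 genes with a summit of all 8 lists at the start, a restriction chosen after the values were seen, the means were 143 and 243 bp.

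At the same places the BRD summits were upstream of BRM-GFP. Among overlapping regions the median offset of the BRD summit from the BRM-GFP summit was -51.5 bp for BRD1-GFP, -59.0 bp for BRD2-GFP and -72.0 bp for BRD13-GFP, and the BRD summit was upstream in 74.5%, 75.4% and 76.4%. At 4451 of 6328 regions with all 3 BRD proteins and both marks (70.3%), the median BRD summit was upstream of BRM-GFP and both marks were downstream of it.

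Sequence composition around the summits differed as well. In windows of 300 bp, the mean AT content was 58.9% at BRM-GFP summits, 56.8% at H4K5ac summits and 56.9% at H4K8ac summits, against 67.8% in the promoters of 27764 genes (250 bp before to 50 bp after the start). At the same distance from the start in all genes it was close to the values at the summits, 60.2% at the median BRM-GFP place and 59.7% at the median H4K5ac place. The motif GAGAGAGA, counted on both strands, was found in 25.8% of the 8543 windows at BRM-GFP summits, 15.7% at H4K5ac summits, 11.8% at H4K8ac summits and 8.39% of all promoters. Of windows at the median BRM-GFP place of all genes, which share the distance from the start, 19.3% held the motif, and of windows at the median H4K5ac place 11.5% did. The 6-base CACGTG, the G-box core bound by several bZIP and bHLH factors, was found in 9.22% of the BRM-GFP windows, 3.71% of the H4K5ac windows, 7.63% of promoters and 4.10% of all genes at the median BRM-GFP place. AAACCCTA, a telobox sequence, was found in 12.2%, 13.5%, 6.28% and 11.2% of these windows. TATAAA was found in 22.7%, 12.8%, 52.1% and 26.4%. TGGGCC was found in 6.84%, 2.13%, 15.4% and 4.21%, and GGGCCC, which can overlap it, in 1.43%, 0.304%, 1.98% and 0.533%. A match is a description of the letters and not a binding site. An example of a GA repeat close to a strong BRM-GFP summit is AT2G30740, a protein kinase gene, where capitals mark the 8 bases nearest the summit (chr2:13095263-13095292, plus strand, upstream of the gene).
AT2G30740 GA repeat: ctctctctctcTCTCTCTCtctctctctct

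Among the 10 best-ranked BRM-GFP regions with both marks, both marks lay downstream of BRM-GFP at 6 genes. Over all genes with both marks this share was 82.3%, and the difference was not tested. The 6 genes were AT3G10040, AT2G30740, AT4G32030, AT5G15120, AT5G55040 and HAP8. At AT3G10040 (HRA1, hypoxia response attenuator, chromosome 3, 3096345 to 3098417), the BRM-GFP summits were at 244 and 242 bp from the gene start in the 5′ UTR, the H4K5ac summits at 561 and 434 bp, and the H4K8ac summits at 665 and 1403 bp. The BRM-GFP summits lay upstream of all 4 acetylation summits, and the H4K8ac lists disagreed on their summit. AT5G15120 (PCO1, plant cysteine oxidase 1) had BRM-GFP at 9 and 4 bp, H4K5ac at 391 and 252 bp and H4K8ac at 515 and 377 bp. AT2G30740 had BRM-GFP at -10 and -53 bp, H4K5ac at 360 and 319 bp and H4K8ac at 373 and 291 bp. In each of these genes the BRM-GFP summits and the acetylation summits did not overlap.

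At AT5G55040, annotated as a bromodomain protein, BRM-GFP lay at 249 and 225 bp in the 5′ UTR, H4K5ac at 537 and 543 bp and H4K8ac at 520 and 536 bp in the first coding exon. GATA1, a GATA transcription factor, was different, with BRM-GFP at 474 and 571 bp, H4K5ac at 483 and 432 bp and H4K8ac at 451 and 448 bp. There the lists overlapped for H4K5ac, and both H4K8ac summits were upstream of both BRM-GFP summits. AT2G36220 had BRM-GFP at 584 and 699 bp, H4K5ac at 582 and 503 bp, both upstream, and H4K8ac at 516 and 614 bp, which overlapped BRM-GFP. AT3G52800, an A20/AN1-like zinc finger gene, had BRM-GFP at 874 and 878 bp, H4K5ac at 960 and 811 bp on either side of it, and H4K8ac at 853 and 741 bp upstream. AT1G04000 had the marks on opposite sides of BRM-GFP, H4K5ac at 422.5 bp downstream and H4K8ac at -221 bp. At 9 of these 10 genes the BRM-GFP region held the whole H4K5ac region, AT1G04000 being the exception.

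The genes with the longest distances illustrate both directions and were chosen for them. At XCT (chromosome 2, 9065154 to 9068228) the BRM-GFP summits lay at -671 and -649 bp, the H4K5ac summits at 301 and 335 bp and the H4K8ac summits at 362 and 310 bp, and the BRM-GFP and H4K5ac regions did not overlap. SVB had BRM-GFP at -560 and -506 bp and H4K5ac at 395 and 481 bp. KNAT4 had BRM-GFP at -162 and -140 bp, H4K5ac at 879 and 804 bp, and a BRM-GFP region of 3587 bp that held the H4K5ac region of 492 bp. QUL2 and AT2G40430, a Nop53 gene, were the others, with H4K5ac 979 ± 333 and 972 ± 70.7 bp downstream (SD, n = 4 pairs of lists), the BRM-GFP lists of QUL2 lying far apart at -670 and -94 bp. These values lie at the limit of 1 kb set on the distance.

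In the other direction, BCAT3, a branched-chain aminotransferase gene, had BRM-GFP at -980 and -914 bp and H4K5ac at -1948 and -1908 bp. Those H4K5ac summits lay in coding sequence of the neighbouring gene AT3G49670. The others were AT2G36200, AT4G18250, AT5G05180 and cPT4, with H4K5ac at -978, -981, -900.0 and -939.5 bp from BRM-GFP. The H4K5ac summits of AT4G18250, AT5G05180 and cPT4 also lay inside a neighbouring gene.

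The closest summits were found at DWA3, AT1G23150, MIR173, AT4G12090 and AT3G03280. At DWA3, which encodes a WD40-repeat protein, the summits were at 270 and 276 bp in BRM-GFP, 283 and 283 bp in H4K5ac, and 265 and 285 bp in H4K8ac, all in the 5′ UTR. AT3G03280 had BRM-GFP at 328 and 306 bp, H4K5ac at 325 and 330 bp and H4K8ac at 332 and 319 bp. At DWA3 both H4K5ac summits lay a few bases downstream of both BRM-GFP summits and H4K8ac overlapped BRM-GFP, and at AT3G03280 the 3 kinds overlapped.

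**Figure D5:**
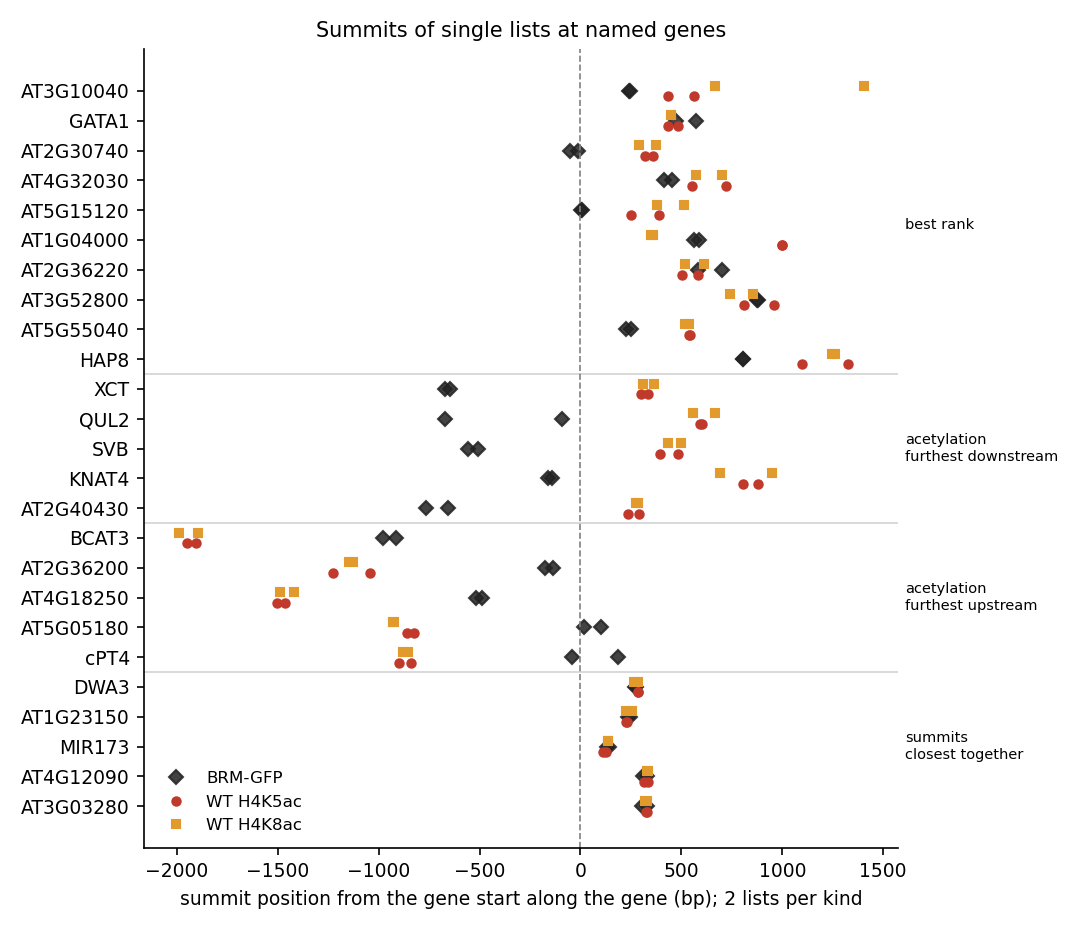
Summit positions from the gene start (x axis, bp along the gene) at 25 genes (y axis) in single lists. Black diamonds are BRM-GFP, red circles H4K5ac and orange squares H4K8ac with 2 symbols each, and BRM-GFP lies left of the marks at XCT (-671 and -649 bp) and right of them at BCAT3 (-980 and -914 bp).

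Of 27770 genes, 38.1% had a BRM-GFP region at the start and 30.6% also had both marks within 1 kb of it. Across 8491 such genes both marks were downstream of BRM-GFP in 82.3%. H4K5ac was downstream in 84.4% of the 9098 genes that had it within 1 kb and H4K8ac in 87.4% of 8725, and gene lists are read against these shares. In small lists, counts near these shares are no result about the listed genes. Light signalling genes had BRM-GFP at the start in 11 of 11, and H4K5ac was downstream in 9 of 9 genes that had it within 1 kb. At PHYB, a red light receptor, BRM-GFP lay at -82 and -131 bp, H4K5ac at 318 and 285 bp and H4K8ac at 619 and 460 bp. PHYA, the far-red receptor, had mean distances of 268 ± 92.3 bp to H4K5ac and 599.5 ± 66.9 bp to H4K8ac (SD, n = 4 pairs of lists). The blue light receptors CRY1 and CRY2 had H4K5ac 128 ± 59.8 and 168 ± 88.0 bp downstream.

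Circadian clock genes had BRM-GFP at the start in 12 of 12, against 38.1% of all genes. H4K5ac was downstream in 8 of 8, which is close to the 84.4% over all genes. TOC1, an evening component of the clock, had BRM-GFP at 228 and 206 bp, H4K5ac at 457 and 295 bp and H4K8ac at 436 and 414 bp. PRR7, PRR3 and ELF3 had H4K5ac 154.5, 182.5 and 108 bp downstream. CCA1 and LHY, the morning MYB factors, and PRR9 and PRR5 had BRM-GFP but no acetylation summit within 1 kb of it. The BRM-GFP lists of PRR5 placed their summits at 59 and -1407 bp, so its case is uncertain.

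Among hormone genes H4K5ac was downstream in 10 of 10 for abscisic acid, 7 of 7 for auxin and 4 of 4 for gibberellin. In lists this small these counts are close to the 84.4% over all genes and are no result about hormone genes. ABI1 and ABI2, protein phosphatases that restrain abscisic acid signalling, had H4K5ac 521 ± 151 and 410.0 ± 92.4 bp downstream, and HAB1 of the same family 189 ± 99.0 bp (SD, n = 4 pairs of lists). The abscisic acid receptor gene PYL1 had BRM-GFP at 348 and 353 bp and H4K5ac at 438 and 471 bp. Of the auxin genes, IAA2, SHY2 and IAA19, which encode Aux/IAA repressors, had H4K5ac 597, 493 and 432 bp downstream, and NPH4, an auxin response factor, 140.5 bp. The gibberellin receptor genes GID1B and GID1C had H4K5ac 160.5 and 58.5 bp downstream. The DELLA genes RGA1 and RGL1 had it 847.5 ± 290 and 53.0 ± 78.0 bp downstream (SD, n = 4 pairs of lists), the latter within the spread of the list pairs. The BRM-GFP lists of RGA1 lay far apart, at 242 and 706 bp.

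Stress and chromatin genes followed. Among ERF and DREB factors H4K5ac was downstream in 9 of 10 genes, close to the 84.4% over all genes. At CBF2, a cold response factor, BRM-GFP lay at -155 and -136 bp, H4K5ac at 513 and 493 bp and H4K8ac at 500 and 404 bp. DREB2A, DREB2B and ERF1 had H4K5ac 150, 109.5 and 100.5 bp downstream. Among histone acetylation enzymes with BRM-GFP at the start, H4K5ac was downstream in 6 of 6, again close to the 84.4% over all genes. HAC5, a p300/CBP-type acetyltransferase gene, had BRM-GFP at 149 and 135 bp, H4K5ac at 215 and 206 bp and H4K8ac at 298 and 285 bp, an order without overlap between the 3 kinds. HAC1, HAC12 and HAG1 had H4K5ac 65.5 ± 75.7, 72.5 ± 105 and 85 ± 127 bp downstream, within the spread of the list pairs (SD, n = 4 pairs).

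Of the SWI/SNF subunit genes, 2 of 11 had BRM-GFP at the start, against 38.1% of all genes, and 10 of 11 had H4K5ac there, against 57.4%. Of 18 listed subunit symbols only 11 matched a gene, so these counts leave out subunits and do not cover the whole family. The difference of this list from other genes was not tested. BRM itself (chromosome 2) had BRM-GFP at 473 and 489 bp, H4K5ac at 594 and 538 bp and H4K8ac at 544 and 564 bp, all in the 5′ UTR. Whether transgene DNA adds to the BRM-GFP signal at BRM was not tested. ARP4, an actin-related subunit, had H4K5ac 171.5 bp downstream.

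Housekeeping genes had BRM-GFP at the start in 10 of 11, with H4K5ac downstream in 8 of 10. Over all genes these shares were 38.1% and 84.4%. The actin gene ACT7 had BRM-GFP at -151 bp in both lists, H4K5ac at 308 and 385 bp and H4K8ac at 394 and 417 bp. At ACT2, H4K5ac was 383.5 bp downstream but the nearest H4K8ac summit was at -540.0 bp from BRM-GFP. ACT8 and UBQ10 had H4K5ac 252.5 and 596 bp downstream, and their BRM-GFP lists placed the summit on different sides of the gene start. In photosynthesis genes H4K5ac was downstream in 4 of 5, also close to the 84.4% over all genes. LHCA3 and PSAD-1 had it 165 ± 118 and 127 ± 139 bp downstream, the latter within the spread of the list pairs. At PSBO2 the BRM-GFP lists placed their summits at 38 and -1072 bp, so its order is not known. CAB1 had H4K5ac 139 bp downstream, but it belongs to a family of near-identical genes in which reads may be split.

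Genes of the vegetative phase change, the passage from juvenile to adult leaves, were mixed in order. BRM-GFP was at the start of 14 of 21. H4K5ac was downstream in 4 of 10 genes that had it within 1 kb, where the share over all genes was 84.4%, and H4K8ac in 3 of 8, where it was 87.4%. The difference of this small list from other genes was not tested. At SPL10, SPL11 and MIR156B both BRM-GFP summits lay more than 500 bp downstream of the gene start, and at SPL2 1 of 2 did. Over all regions with BRM-GFP 500 to 1000 bp downstream of the start, H4K5ac was downstream in 54.7% and H4K8ac in 59.1%. The part of the BRM-GFP position in the counts of this list was not tested. SPL10, a SQUAMOSA promoter-binding factor that promotes the adult phase, had BRM-GFP at 828 and 809 bp, H4K5ac at 375 and 360 bp and H4K8ac at 402 and 360 bp. The acetylation lay upstream of BRM-GFP there, in all lists. SPL2 had BRM-GFP at 652 and 407 bp, H4K5ac at 297 and 286 bp and H4K8ac at 384 and 363 bp, again all upstream. The remaining members with H4K5ac were named after their values were seen, so that both directions are shown. SPL11 had it at -300.0 bp, whereas TOE1 and TOE2, AP2-type repressors of flowering, had it 178.5 and 281 bp downstream. SPL15 and MIR156A had it 263 and 323 bp downstream, and MIR172B at -2.5 bp. MIR156B and MIR156C, which encode the microRNA that represses SPL genes, had H4K5ac at -924.5 ± 36.7 and -20.5 ± 68.6 bp from BRM-GFP, the latter within the spread of the list pairs (SD, n = 4 pairs). The starts of miRNA genes are those of the annotated precursor. At MIR156B the BRM-GFP summits lay at 901 and 846 bp, past the end of that precursor. MIR172A, SPL5 and SPL9 had BRM-GFP and no acetylation summit within 1 kb of it.

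Some lists had BRM-GFP or acetylation without the other. Among floral organ identity genes, 5 of 12 had BRM-GFP at the start, and AP2 alone of these had marks near it, with BRM-GFP at 687 and 625 bp, H4K5ac at 637 and 566 bp and H4K8ac at 578 and 635 bp, which overlap. AP1, AP3, SEP3 and SHP1 had BRM-GFP and no acetylation summit within 1 kb of it. The same held for PIF4 of the light list and for LHCB2.1 and LHCA1 of the photosynthesis list. DREB1B of the ERF and DREB list was another case. Its BRM-GFP summits lay at -608 and -674 bp with no acetylation summit within 1 kb, yet both marks had a region at its start. Of the seed maturation genes, 0 of 11 had BRM-GFP or either mark at the start, and 0 of 6 pollen genes had BRM-GFP.

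Examples of the nesting classes, ranked by BRM-GFP, show the same span. AT3G07760, SAUL1 and AT1G13880 had a BRM-GFP region inside the H4K5ac region. SAUL1, a ubiquitin ligase gene, had BRM-GFP at -22 and 50 bp, H4K5ac at -443 and -456 bp and H4K8ac at 298 and 264 bp, so the marks nearest to BRM-GFP lay on opposite sides of it. AT5G50900 and AT1G53430 were staggered with BRM-GFP further upstream, with H4K5ac 198 and 48.5 bp downstream. ERF4, a repressor of the ERF family, was staggered with BRM-GFP reaching further downstream, although its summits kept the general order at 338 and 288 bp for BRM-GFP and 649 and 643 bp for H4K5ac. AT3G55430 had the same class and an H4K5ac distance of 81.5 bp. At AT3G06435, also of that class, the H4K5ac lists placed their summits at -457 and 373 bp.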

How the data were processed

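ChIP-seq of BRM-GFP, H4K5ac and H4K8ac was analysed from deposited peak lists, 1 per sample, so peaks had been called per replicate. Per the labels, the authors used Bowtie, MACS2 2.1.1, deepTools and the TAIR10 build. Peak names mark removal of duplicate reads. How inputs entered the calls is not given in the sources used here. Lists had 10 columns. The fold (a ratio over background), the −log10 p-value, the −log10 q-value and the score, which is 10 times the −log10 q, are the authors' deposited values. They served only to rank, filter or describe peaks. Fold and −log10 p gave the background coverage of a list, with pileups whole within 0.02 for at least 99.97% of solved peaks.

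Peaks on chromosomes 1 to 5 were used. Genes were 27770 protein-coding and miRNA genes of TAIR10.1, and no peak ended past a chromosome end of that assembly. An overlap of 1 bp merged peaks. Lists were compared by two-sided exact permutation tests over lists, with Python 3.11.15, numpy 2.4.6, pandas 2.3.3 and scipy 1.17.1. Regions and genes are not replicates and were not tested. Scripts were tested on simulated data.

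Groups were taken from sample titles. Gene lists, members and named-gene rules were chosen with earlier results of these data known. For each list up to 4 members in list order with BRM-GFP at the start and both marks are named, together with members that had BRM-GFP but neither mark near it, where 5 or fewer did. Also named are the 10 genes whose BRM-GFP regions ranked best by score, taking the worse rank of both replicates, 5 genes with the longest distance in each direction in all list pairs, 5 with the closest summits and 3 per nesting class. List symbols that matched no gene were left out. Alternatives covered each list left out, a −log10 q of at least 5, region midpoints, the best-scoring mark region, limits of 500 bp and 2 kb, other sets of gene starts, same-numbered lists and a stricter overlap. Inputs, brd1/2/13 samples and BRD2-dBromo-GFP were not used here.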

Additional observations from a re-analysis of the deposited data

Results flagged for a closer look

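BRM-GFP and the BRD-GFP proteins differed in their distance to acetylation under the same measure. The median distance from summit to H4K5ac was -98.2 bp in BRM-GFP relative to the BRD-GFP lists, with both BRM-GFP lists below all 6 BRD-GFP lists (exact permutation p = 0.0357, the smallest possible). For H4K8ac the difference was -97.75 bp (exact permutation p = 0.0357), again with both lists below all 6. The groups of 2 lists are too small for a search for single outlying lists.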

How the results depend on the processing

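No alternative turned the sign of a distance, a position or a difference. Shares cannot turn sign, and the shares downstream stayed at 80.7% or more. The order of the nesting shares did turn for H4K5ac. Without BRM-GFP replicate 2, BRM-GFP lay inside H4K5ac in 21.9% and held it in 21.1%, against 13.9% and 27.1% with both lists. Of 108 values under alternatives, 36 stayed within 1 SD or on the same side of the test. Another 70 moved by more than that SD and 2 lost the call. The SD was that of the list pairs or, for positions, of the 2 lists. The exact permutation p of the difference between the marks cannot fall below 0.333. That difference therefore counted as staying unless its sign turned, even at 108 bp with region midpoints. The SDs are small because the pairs share lists. Leaving out each list in turn gave a distance of 127.5 to 132 bp for H4K5ac and 178.5 to 182 bp for H4K8ac, and shares downstream of 81.9% to 83.9% and 85.7% to 87.0%. Positions from the start were then 163 to 171 bp for BRM-GFP, 291 to 294 bp for H4K5ac and 336 to 337 bp for H4K8ac. BRM-GFP lay inside the mark in 11.6% to 21.9% (H4K5ac) and 4.91% to 10.0999% (H4K8ac), and held it in 21.1% to 30.8% and 19.3% to 27.4%. The marks then differed by 47 to 49.5 bp. The difference from the BRD-GFP lists was -99.9 to -96.4 bp with an exact permutation p of 0.143, the smallest that 1 against 6 lists allows.

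With a −log10 q of at least 5, BRM-GFP lay at 182 bp, was inside the mark in 11.2% and 5.02%, and held it in 29.99% and 25.9% (H4K5ac and H4K8ac, in that order throughout). With region midpoints, distances were 226 and 357 bp, shares 80.7% and 83.2%, and the difference between the marks 108 bp. Other alternatives gave 43 to 51.25 bp for that difference. The best-scoring mark region gave 130 bp for H4K5ac and shares of 83.1% and 86.4%. A limit of 500 bp gave 121.5 and 169 bp, 85.2% and 88.3%. A limit of 2 kb gave 137 and 190.5 bp, and 86.1% for H4K8ac. Genes with no other start within 1 kb gave 137 and 191 bp, 87.5% and 90.2%. Starts of every nuclear gene gave 129.5 and 182 bp, 83.3% and 86.3%. The replicate block, pairing lists of the same number, gave 130 and 177 bp, 82.1% and 85.5%. Lists with the same number share only that number.

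An overlap of at least 50% gave 14.98% and 7.56% inside, and 29.3% and 30.4% holding the mark. Positions within 500 bp of the start were 279.5 and 315 bp. Chosen after the data were seen, regions with both marks gave 130.5 bp for H4K5ac, and replicate summits within 100 bp of each other gave 118.5 and 163 bp. The shallower BRM-GFP lists, 2 samples a group and the replicate summit differences limit what single genes can show.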
